A study of Mus musculus with 20 samples.

Results

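The enzymes that modify and conjugate foreign chemicals were followed as a set of gene families in whole mouse adrenal glands. A gene belonged to the set when its symbol placed it in cytochrome P450 families 1 to 4, the aldehyde oxidases, the flavin-containing monooxygenases, the carboxylesterases, the glutathione transferases, the sulfotransferases or the UDP-glycosyltransferases, and its mean over the 20 libraries was at least 5 normalised reads. A normalised read is a sequencing read divided by a size factor of its library. The set held 65 of the 47729 genes in the table. Of 192 matching symbols, 19 carried the pseudogene ending -ps and Cyp2f2 was left out by the rule. Another 107 had a mean under 5 normalised reads, and 35 of these had no read in any library. The members were thus chosen by their mean normalised reads over all libraries, whatever the genotype or sex. The members closest above the limit were Ugt3a2, with a mean of 8.17 normalised reads, and Sult6b1, with 8.30. The genes closest below it were Cyp2j13, with 4.81, and Cyp2j12, with 3.85. By family the set counted 22 P450 genes, 4 flavin monooxygenases, 3 aldehyde oxidases, 5 carboxylesterases, 20 glutathione transferases, 5 sulfotransferases and 6 UDP-glycosyltransferases. One of the P450 entries, Cyp4x1os, is annotated as antisense to Cyp4x1, and without a stated strand setting the reads of that pair cannot be told apart.

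The study asked how removing Bmal1, a core clock gene, from steroid-producing cortex cells alters gene expression in female and male adrenals. There were 5 control females aged 1.5 to 3.4 months, 5 Bmal1 KO females aged 2.4 to 3.4 months, 6 control males aged 2.9 to 4.7 months and 4 Bmal1 KO males aged 2.9 to 3.7 months. Controls as well as KO animals carry SCC::Cre in their labels, a driver named for the side-chain cleavage enzyme of steroid-producing cells, so cells without that driver keep Bmal1 in a whole gland. The labels give neither time of day nor litter, and they do not state that libraries of equal age came from separate animals. The p-values therefore cover the spread among these libraries, part of which may be technical. Libraries held 13421985 to 26742820 reads. Reads over the whole of Bmal1 (symbol Arntl) ran from 494 to 860 normalised reads in control and 833 to 1010 in KO females. In males it was 365 to 1092 in controls and 841 to 995 in KO, and a sum over the whole gene does not test a deletion of part of it. Dbp, a direct target of the clock loop, was lower in KO libraries of both sexes without overlap, at 320 to 554 against 2403 to 3103 normalised reads in females and 352 to 460 against 1317 to 2435 in males. The tissue carried its defining cortex markers, since 10 of 10 were detected in every group and their summed level lay between 762380 and 1567791 normalised reads. Kidney markers summed to 9.27 to 27.9 normalised reads, with Umod and Slc34a1 at 0 in all libraries. Liver markers summed to 93.6 to 512, with Fga at 0 in all libraries.

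Foreign compounds are cleared in stages. Phase I enzymes, chiefly P450s that draw electrons from the reductase Por, add or expose a reactive group. Phase II enzymes then attach glutathione, sulfate or a sugar, and transporters carry the product out of the cell. The pathway is best known from the liver, where nuclear receptors, the aryl hydrocarbon receptor and the clock-controlled factors Dbp, Tef and Hlf set the level of many of these genes. In the adrenal cortex the same enzyme classes meet steroids, bioactivated adrenal toxicants and the products of lipid peroxidation.

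Glutathione transferases carried most of the set's reads. Per kilobase of exon, the 9 highest members were all of this family. Gstm1, a mu-class transferase, led with a mean of 6417 normalised reads per kilobase over the 20 libraries. Gstm2, of the same class, followed with 3548, Gstk1, the kappa-class enzyme of mitochondria and peroxisomes, with 2475, Gstp1, the pi-class enzyme, with 1604, and Gstm7 with 1492. The highest member outside the family was Fmo1, a flavin monooxygenase that oxygenates nitrogen and sulfur atoms of drugs, at 304 normalised reads per kilobase and rank 10. The highest P450 members on the same scale were Cyp4b1, at 255, Cyp4v3, at 253, Cyp4f13, at 223, Cyp4f14, at 215, and Cyp1b1, at 209. Cyp2f2, which the rule left out, stood at 1075. The CYP4 enzymes mainly hydroxylate the ends of fatty acids, and Cyp1b1 oxidises aromatic hydrocarbons and estrogens. The lowest member was Sult2b1, which sulfates cholesterol and pregnenolone, at 2.50. All members together held 42073 ± 2191 normalised reads (SD, n = 5) in control and 46232 ± 1274 (n = 5) in KO females. The male sums were 43993 ± 3253 (n = 6) in controls and 48276 ± 2306 (n = 4) in KO.

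Between the Bmal1 genotypes limma called 1 of 65 members in females and 5 of 65 in males, all of them conjugating enzymes. DESeq2 also called the phase I gene Cyp4f14 in females. In females Gstm7 rose, and no member fell. In males Gstm7 rose, and Gsta3, Gstt3, Ugt1a6a and Ugt3a2 fell. The test was limma on log2(value + 1), with p adjusted over all 26612 genes tested, and a gene was called at an adjusted p under 0.05. The female count was 1 of 65 members (1.54%), beside 1.75% of all genes tested, of which 1.12% were higher and 0.635% lower. Among genes with a mean of at least 5 the share was 2.31%, with 1.46% higher and 0.847% lower. The male count was 5 of 65 (7.69%), 1 higher and 4 lower, beside 1.33% of all genes tested, of which 0.763% were higher and 0.567% lower. Among genes with a mean of at least 5 it was 1.79%, with 1.03% higher and 0.768% lower. In whole glands, fewer cells of a type and less RNA per cell cannot be told apart. The median genotype difference of the members was 0.061 on the log2 scale in females and -0.016 in males, beside medians of 0 and 3e-04 over all genes tested. With the libraries of the male contrast fitted alone, 0 of the 65 members were called by limma in males, although 16 had an unadjusted p under 0.05. edgeR called 4 members in males and DESeq2 called 8. These 3 counts stand beside 0.733%, 2.18% and 4.29% of all genes tested in the same fits. DESeq2 added Gstt1, Gstt2, Gstm2 and Gstcd to the limma calls in males and lacked Ugt3a2. Gstcd had 228 to 283 normalised reads in control males and 303 to 359 in KO males. Limma called it in males without control female 5, and without the females labelled 1.5 months. In KO females 2 of 5 markers of the X-zone, an inner cortical layer, were called by limma, edgeR and DESeq2 alike. In limma Thrb rose by 0.61 ± 0.11 on the log2 scale. Cyp2f2, a P450 gene that the rule left out of the set, had a difference of -2.82 ± 0.37. Its level went from 7517 ± 3336 (SD, n = 5) to 1123 ± 756 (n = 5) normalised reads. The part of these 2 markers in the female results was not tested. The cortex markers Cyp11a1 and Star also fell in KO males, with log2 differences of -0.71 and -0.69, and their part in the male results was not tested. Leaving out control male 3, control male 4, KO male 2 or KO male 3 left 1 male call in each case.

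**Figure D1:**
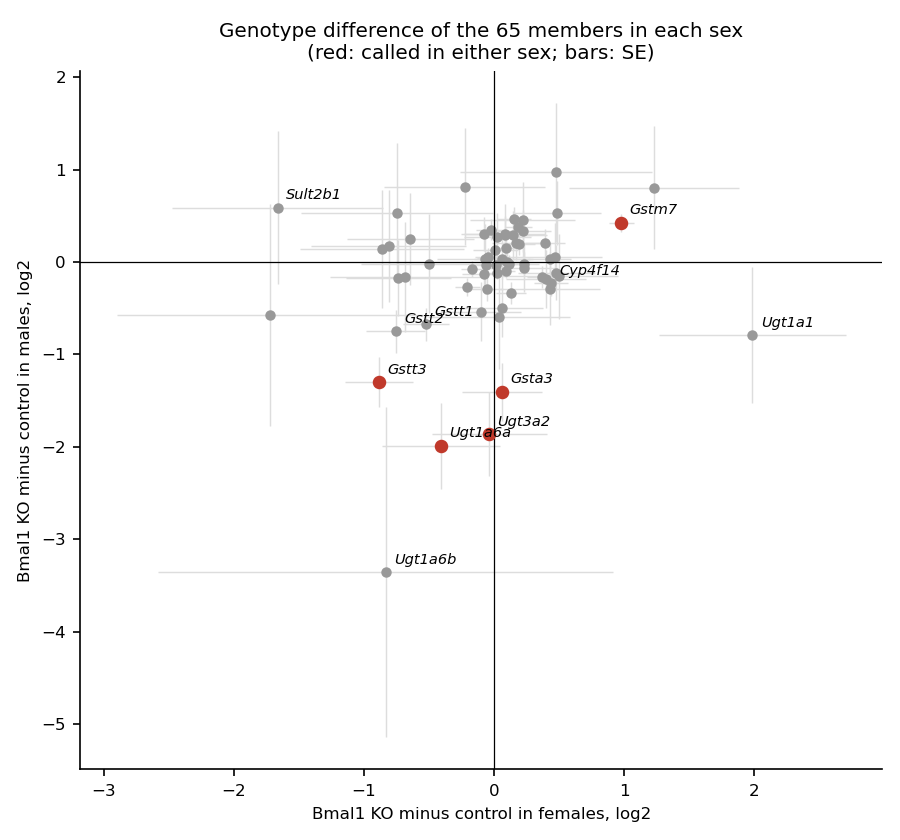
Log2 difference between Bmal1 KO and control libraries of each of the 65 members, in females on the horizontal axis and in males on the vertical axis, with standard errors as bars. The 5 red members passed the test in at least 1 sex, and Gstm7 is the only one of them that lies above 0 in both.

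Promoter sequence was read for the called members from RefSeq on build GRCm38.p6, so that their upstream regions can be compared letter by letter. RefSeq entries matched 51 of the 65 members, and among the called ones Ugt3a2 had no entry. The 250 bases before the start site are given 5′ to 3′ in the direction of transcription, with matches to the 5 motifs searched in capitals. They are chr3:107931818-107932067 on the minus strand for Gstm7, chr1:21240335-21240584 on the plus strand for Gsta3, chr10:75781415-75781664 on the minus strand for Gstt3 and chr1:88134559-88134808 on the plus strand for Ugt1a6a.
Gstm7: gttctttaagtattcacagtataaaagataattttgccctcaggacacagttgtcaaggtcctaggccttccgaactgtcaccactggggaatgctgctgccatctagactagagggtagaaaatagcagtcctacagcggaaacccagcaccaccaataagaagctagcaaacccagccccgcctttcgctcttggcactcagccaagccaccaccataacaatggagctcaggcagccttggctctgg
Gsta3: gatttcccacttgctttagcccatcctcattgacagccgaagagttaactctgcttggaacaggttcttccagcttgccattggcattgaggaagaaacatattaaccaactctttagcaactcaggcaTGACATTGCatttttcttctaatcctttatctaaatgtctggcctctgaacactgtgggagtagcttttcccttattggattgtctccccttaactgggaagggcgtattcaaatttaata
Gstt3: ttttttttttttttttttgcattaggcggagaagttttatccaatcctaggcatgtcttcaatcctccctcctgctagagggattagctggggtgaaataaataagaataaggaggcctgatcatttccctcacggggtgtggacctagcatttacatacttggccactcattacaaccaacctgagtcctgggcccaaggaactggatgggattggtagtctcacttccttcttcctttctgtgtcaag
Ugt1a6a: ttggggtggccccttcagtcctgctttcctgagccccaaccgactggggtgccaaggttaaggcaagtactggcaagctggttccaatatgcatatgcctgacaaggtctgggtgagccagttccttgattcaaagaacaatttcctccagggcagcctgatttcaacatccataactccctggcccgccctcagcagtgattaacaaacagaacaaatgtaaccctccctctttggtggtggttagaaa
The motifs, searched on both strands, were the E-box CACGTG of the clock factors, the D-box TTATGTAA of Dbp and its relatives, the nuclear receptor half-site AGGTCA, the antioxidant response core TGACNNNGC and the aryl hydrocarbon receptor core GCGTG. The single match in these 4 windows was TGACATTGC in Gsta3, at positions -121 to -113 from the start site. Over all 51 members with an entry, counting every start site, the E-box was found in Cyp2j6 and Cyp4v3, that is in 2 of 51, beside 6.02% of all 32851 promoters. The D-box was found in 0 of 51, beside 0.819% of all promoters. The antioxidant response core was found in 5 of 51, namely Cyp4f14, Cyp4f18, Gsta3, Gstm5 and another start site of Gstm7, beside 10.2%. The half-site was found in 5 of 51, beside 14.0%, and the aryl hydrocarbon receptor core in 14 of 51, beside 28.2%. A match is a run of letters and not a shown binding site.

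Gstm7 (ENSMUSG00000004035, chr3:107926334-107931817 on GRCm38) encodes a mu-class glutathione transferase. Its levels in control females were 1679, 2077, 1503, 1768 and 1552 normalised reads, and in KO females 3358, 3162, 3221, 3645 and 3438. Every KO female therefore stood above every control female. In control males it ran from 1812 to 2259 with a median of 1869, and in KO males it was 3209, 2576, 2531 and 2269. All 4 KO males lay above the 6 control males, with the lowest KO male just above the highest control. The log2 difference between genotypes was 0.98 ± 0.095 (SE) in females, with limma adjusted p = 2.16e-06, and 0.42 ± 0.097 in males, with adjusted p = 0.0283. The female call held in all 32 alternative analyses, whose log2 differences ran from 0.93 to 1.05. The male call was lost in 8 of 32, with adjusted p up to 0.116. The difference between the sexes in this response was 0.55 ± 0.14, and its adjusted p over all genes was 0.267. Of the gene's 50-base stretches, 0.53% also occur in transcripts of other genes.

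Gstm7 lies in a cluster of 7 Gstm members on chromosome 3, between positions 107895821 and 108044894, and the other 6 were not called by genotype in either sex. In males their closest companion was Gstm2, with 4757 to 7672 and a median of 6754 normalised reads in controls and 8030, 10224, 8665 and 9512 in KO. These male groups did not overlap either, yet the log2 difference of 0.46 ± 0.13 had an adjusted p of 0.113. Gstm1 stood at 11240 ± 1589 (SD, n = 6) in control males and 14254 ± 1280 (n = 4) in KO males, with an adjusted p of 0.175 in limma. In females the log2 differences were 0.16 for Gstm2 and -0.024 for Gstm1, and all groups overlapped. DESeq2 called Gstm2 in males in addition to Gstm7.

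Gsta3 (ENSMUSG00000025934, chr1:21240589-21265661) encodes an alpha-class transferase known for conjugating the reactive epoxide of aflatoxin. In control males its levels ran from 95.9 to 343 normalised reads with a median of 284. In KO males they were 104, 86.2, 74.9 and 68.0. The KO males stayed in a narrow low range that touched only the lowest control male, and the control males themselves were spread widely. The log2 difference in males was -1.40 ± 0.32, with limma adjusted p = 0.0256, and 9 of 32 alternatives gave up to 0.195. Among these, limma-voom on the recovered reads and the fit to males alone lost the call, as did leaving out control male 2, 3 or 4 or KO male 2, 3 or 4. Females showed no such shift. Control females had 1119, 756, 1036, 648 and 1441 normalised reads and KO females 1364, 777, 736, 1324 and 979, and the log2 difference was 0.061 ± 0.31. The difference between the sexes in response was 1.46 ± 0.44, with an adjusted p of 0.422.

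Of the theta-class genes, whose enzymes act on small halogenated compounds, 1 of 3 fell in KO males and none was called in KO females. Gstt3 (ENSMUSG00000001665, chr10:75774115-75781414) had 210 to 739 normalised reads with a median of 420 in control males and 212, 146, 136 and 195 in KO males. A single control male, the lowest, fell within the KO range. The log2 difference in males was -1.30 ± 0.27, with limma adjusted p = 0.0141, and 3 of 32 alternatives lost the call with adjusted p up to 0.0758. In females Gstt3 had 287, 198, 356, 379 and 280 normalised reads in controls and 107, 187, 173, 226 and 125 in KO. The female log2 difference was -0.88 ± 0.26 with adjusted p = 0.106, so it missed the threshold, and DESeq2 called it with adjusted p = 0.0295. The sexes were not shown to differ, since all 3 Gstt genes had an interaction estimate between -0.0027 and 0.42 and none was called.

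Gstt1 and Gstt2, the neighbours of Gstt3 on chromosome 10, had negative estimates in both sexes and missed the limma threshold. Gstt2 had 227, 450, 229, 278 and 342 normalised reads in control females and 105, 159, 159, 281 and 216 in KO females. In males it had 436 to 713 with a median of 594 in controls and 395, 404, 326 and 264 in KO, without overlap. Its log2 differences were -0.75 ± 0.23 in females and -0.75 ± 0.23 in males, with limma adjusted p of 0.109 and 0.142. Gstt1 differed by -0.52 ± 0.18 in females and -0.67 ± 0.18 in males, with adjusted p of 0.177 and 0.0750. In males edgeR called Gstt1 and Gstt3, and DESeq2 called all 3. The 3 genes share little sequence, since 0% of the 50-base stretches of Gstt1, 0.38% of those of Gstt2 and 12.5% of those of Gstt3 occur in other genes.

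Among the sugar-transferring enzymes, Ugt1a6a (ENSMUSG00000054545, chr1:88134809-88218997), which conjugates simple phenols, fell in KO males. Its levels there were 35.1, 151, 63.0 and 52.9 normalised reads, against 139 to 579 with a median of 262 in control males. Only KO male 2 reached into the control range. The log2 difference was -1.99 ± 0.46, with limma adjusted p = 0.0328. It lost the call in 9 of 32 alternatives, with adjusted p up to 0.123, among them edgeR and the fit with age as a covariate. Females had 194.5, 97.9, 124, 130 and 57.6 in controls and 216, 74.9, 111, 64.0 and 36.8 in KO, with full overlap and a log2 difference of -0.41 ± 0.46.

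The Ugt1a genes use their own first exons and a common set of later exons, and a read in the common part names no single gene. For Ugt1a6a 52.1% of its 50-base stretches occur in other genes, for Ugt1a6b 79.8%, for Ugt1a1 58.2% and for Ugt1a7c 53.6%. The separate values of these 4 genes are therefore uncertain. Ugt1a6b was at 0 in 6 of the 20 libraries and at up to 284 normalised reads in others, with 104, 0, 74.7, 51.6 and 0 in control females. Ugt1a7c had 22.1 to 68.2 with a median of 34.0 in control males and 25.5, 26.9, 16.3 and 41.0 in KO males, and was not called.

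Ugt3a2 (ENSMUSG00000049152, chr15:9335550-9370955) belongs to the UGT3 family, whose studied members use sugar donors other than UDP-glucuronic acid. It is the member with the lowest mean, and its male values rest on few reads. Control males had 6.41 to 16.6 normalised reads with a median of 8.10, and KO males 0.797, 0, 5.43 and 4.32, without overlap. The log2 difference was -1.86 ± 0.45, with limma adjusted p = 0.0412, and the call was lost in 19 of 31 alternatives, edgeR and both other pseudocounts included. Female groups overlapped, with 6.24, 16.5, 8.10, 7.25 and 10.3 in controls and 12.1, 6.73, 11.7, 5.61 and 10.1 in KO.

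**Figure D2:**
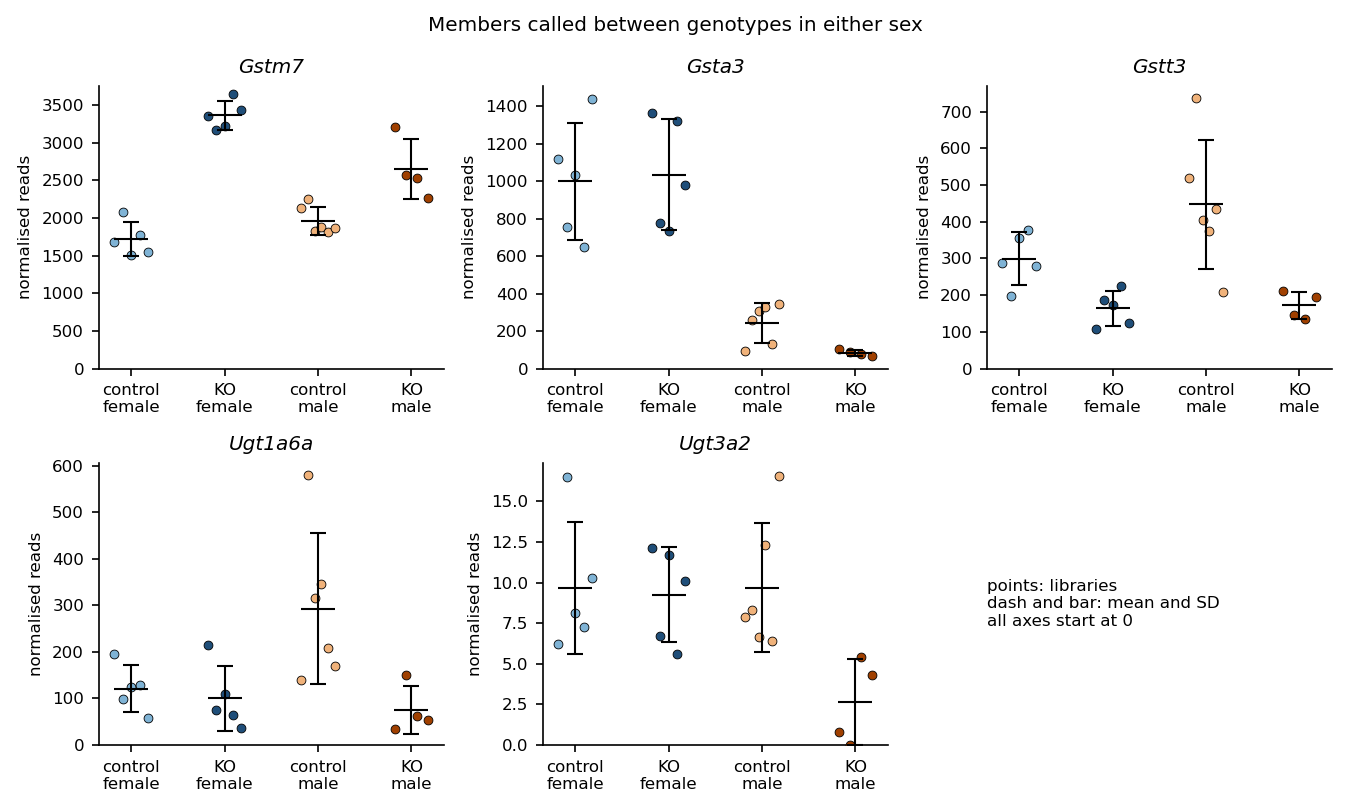
Normalised reads of the 5 members called between genotypes, with 1 point per library, a dash for the group mean and a bar for the SD (5 control females, 5 KO females, 6 control males, 4 KO males). Gstm7 is higher in the KO libraries of both sexes without overlap, and the other 4 are low in the 4 KO males beside a wide spread of control males.

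The phase I members, which do not include Cyp2f2, gave no genotype call in limma. Among the 22 P450 genes 0 passed in females, where 1 had an unadjusted p under 0.05, and 0 passed in males, where again 1 did. edgeR called 0 of them in both sexes and DESeq2 called 1 in females and 0 in males. That gene was Cyp4f14, a fatty acid and leukotriene hydroxylase. It had 367, 295, 357, 395 and 240 normalised reads in control females and 440, 338, 470, 512 and 472 in KO females. The log2 difference of 0.44 ± 0.13 had a limma adjusted p of 0.106 and a DESeq2 adjusted p of 0.0350. Fmo1 had 3130, 2674, 2636, 2031 and 3642 in control females and 3835, 4217, 4096, 3099 and 3505 in KO females, with a log2 difference of 0.43 ± 0.16 and adjusted p = 0.251. In males Fmo1 differed by 0.036 ± 0.17. Aldehyde oxidases and carboxylesterases also had 0 calls by genotype with limma, edgeR and DESeq2, and 1 of these 8 genes had an unadjusted p under 0.05, Ces2e in females.

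No member's genotype response was shown to differ between the sexes. For the interaction of genotype and sex, limma, edgeR and DESeq2 each called 0 of 65 members, beside 0.0301% of all genes tested in limma (0.0301% higher, 0% lower) and 0.0368% of those with a mean of at least 5 (0.0368% higher), and 9 members had an unadjusted p under 0.05. The smallest of these belonged to Gstm7, at 0.000543. Cyp4f14 followed with an estimate of 0.67 ± 0.19 and an adjusted p of 0.361, as its levels were 331 ± 62.7 and 446 ± 65.6 in control and KO females (n = 5 each) but 690 ± 63.5 (n = 6) and 590 ± 81.6 (n = 4) in control and KO males. Gstk1, with an estimate of 0.53 ± 0.17 and adjusted p = 0.470, had 4118, 6759, 4173, 4172 and 4267 normalised reads in control females and 7031, 5635, 4758, 6475 and 6092 in KO females. One control female sat among the KO values. Without that library, control female 2, Gstk1 was called higher in KO females, with a log2 difference of 0.51 and adjusted p = 0.00264 in limma.

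Sex divided the same families far more widely than genotype. In controls 15 of 65 members were higher in females and 20 were higher in males. That is 35 called members, beside 26.4% of all genes tested (13.5% higher, 12.9% lower in females) and 34% of genes with a mean of at least 5 (17.9% higher, 16% lower). In KO libraries 16 were higher in females and 17 in males, 33 in all, beside 22.8% of all genes tested (12.1% higher, 10.6% lower) and 29.5% of genes with a mean of at least 5 (16.3% higher, 13.2% lower). These 2 comparisons use separate libraries, and 30 members were called in both, out of 35 and out of 33, beside 16.2% of all genes tested and 22% of genes with a mean of at least 5. Cyp2b10, Cyp3a16, Fmo4, Gsta2 and Ugt1a1 had means under 5 in both male groups, and Cyp4f15 in both female groups. They reached the limit of the rule through the sex where they are high, so their sex calls are not independent of it. Genes with a mean of at least 5 passed the same limit. Median log2 differences, female minus male, were -0.20 in controls and -0.077 in KO, beside -0.048 and -0.066 over all genes tested. Age differs between the sexes of the controls. With age as a covariate limma called 22 members in controls, 10 higher and 12 lower in females, and 27 in KO, beside 14.1% and 20% of all genes tested in that fit. Without the 2 control females labelled 1.5 months, 29 were called in controls, beside 18.8% of all genes tested.

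**Figure D3:**
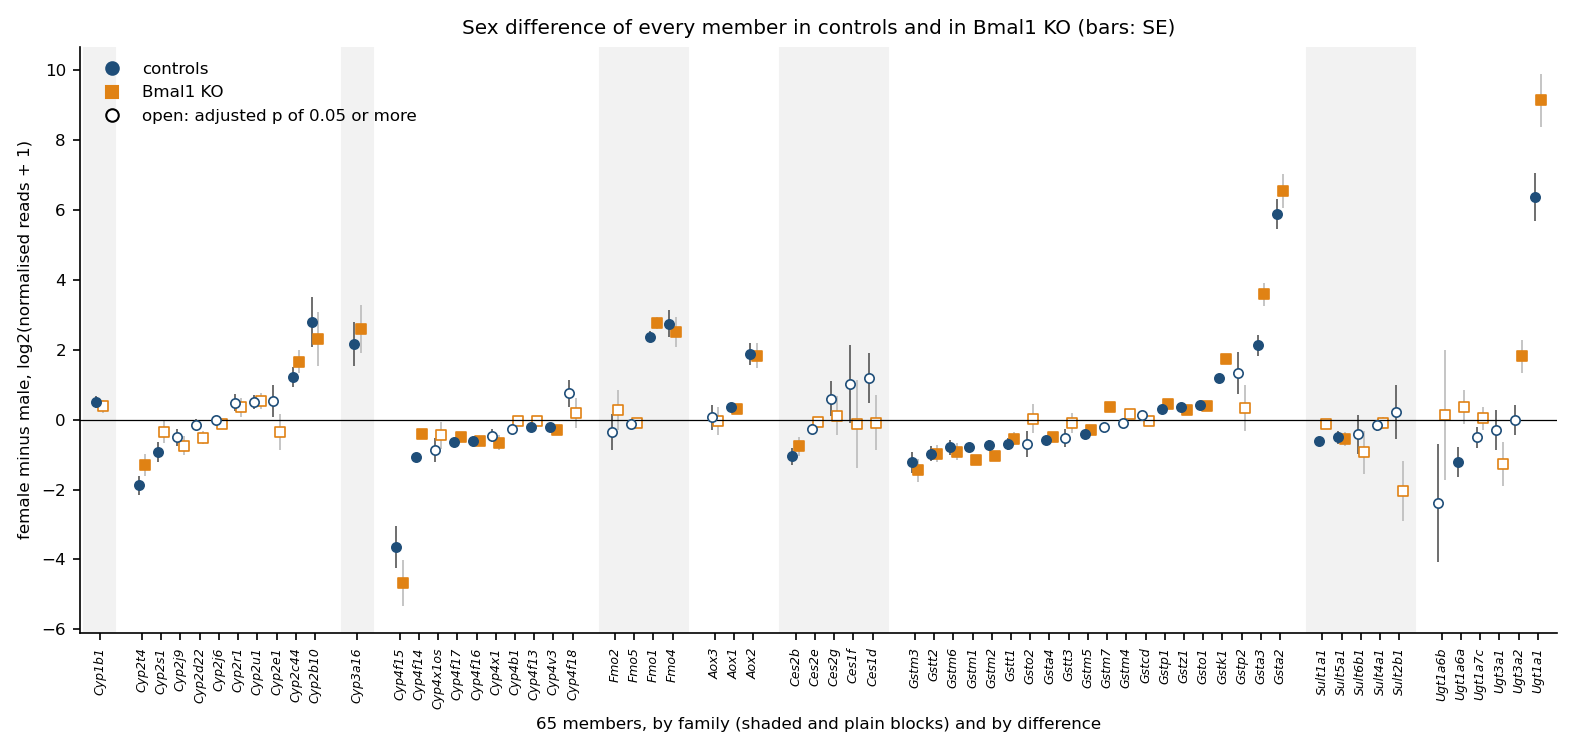
Log2 difference between females and males of all 65 members in controls (circles) and in Bmal1 KO (squares), ordered within families, with standard errors as bars and open symbols for an adjusted p of 0.05 or more. Values above 0 are female-high, and 30 members have filled symbols in both genotypes.

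Among the 22 P450 members, which do not include Cyp2f2, 4 were female-high and 8 male-high in controls. Over all genes tested, 13.5% were female-high and 12.9% male-high in controls, and 12.1% and 10.6% in KO. In limma the CYP4 family held no female-high call, and 6 of its 10 genes were male-high in each genotype. Cyp4f15, a fatty acid hydroxylase of the Cyp4f cluster on chromosome 17, had 9.36, 9.27, 0.900, 0.906 and 0 normalised reads in control females and 19.9 to 65.2 with a median of 44.6 in control males. In KO it had 2.80, 2.88, 2.70, 2.25 and 0 in females and 35.9, 129, 38.0 and 145 in males. The sexes did not overlap, and the log2 differences were -3.64 ± 0.59 in controls and -4.68 ± 0.66 in KO, with limma adjusted p of 9.37e-05 and 2.21e-05. Cyp4f14 differed by -1.07 ± 0.13 in controls and -0.40 ± 0.14 in KO, Cyp4f16 by -0.60 and -0.61, and Cyp4f17 by -0.65 and -0.50, all called. The KO call of Cyp4f14 was lost in 8 of 32 alternatives, among them the age covariate, the fit to KO libraries alone and leaving out KO female 1 or 2 or KO male 1, 2 or 4. In controls 5 of the 6 Cyp4f genes were male-high. Cyp4f18, the gene not called by limma, had 1 control female at 796 normalised reads beside 83.3 to 237 in the other 4, and edgeR and DESeq2 called it by sex in controls.

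Cyp2t4, a P450 without a settled substrate, had 7.28, 8.24, 13.5, 3.62 and 11.3 normalised reads in control females and 23.2 to 44.6 with a median of 33.2 in control males. KO females had 14.0, 12.5, 8.10, 11.2 and 13.8, and KO males 23.1, 23.2, 36.9 and 41.0. All males of both genotypes lay above all females, with log2 differences of -1.88 ± 0.28 and -1.29 ± 0.31. Apart from Cyp1b1, the P450 members that limma called female-high stood at low levels. That does not hold for Cyp2f2, the P450 gene left out by the rule. Control males had 16.6 to 61.6 normalised reads of Cyp2f2, and control females 3646 to 12674. Its female minus male difference in controls was 7.76 ± 0.36 on the log2 scale. Cyp2b10, a classic target of the xenobiotic receptor CAR, had 2.08, 23.7, 9.003, 2.72 and 37.0 in control females and 0 to 1.54 in control males. Cyp3a16, of the drug-oxidising CYP3A group, had 15.6, 13.4, 13.5, 9.06 and 0 in control females and 0 to 3.08 in control males. Their log2 differences in controls were 2.80 ± 0.71 and 2.17 ± 0.63, and in KO they were 2.31 and 2.60. The KO call of Cyp2b10 was lost in 12 of 32 alternatives, among them limma-voom, a pseudocount of 0.1 and leaving out KO female 1, 2, 4 or 5 or KO male 2 or 4, and its control call with age as a covariate. Cyp3a16 lost both calls with a pseudocount of 0.1. Cyp2c44, which makes signalling epoxides from arachidonic acid, had 53.0, 62.8, 33.3, 34.4 and 45.3 in control females and 10.5 to 35.3 with a median of 18.4 in control males. It differed by 1.22 ± 0.30 in controls, a call lost with age as a covariate, and 1.66 ± 0.33 in KO. Cyp1b1 was female-high in controls at 0.50 ± 0.16, with adjusted p = 0.0261, and its KO estimate of 0.39 ± 0.18 had adjusted p = 0.135. The control call was lost in 7 of 32 alternatives: the fit to controls alone, the age covariate, without the females labelled 1.5 months, and without control female 1 or 5 or control male 2 or 4.

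Fmo1 was female-high in both genotypes, and no male reached the level of any female. Its control males ran from 468 to 646 normalised reads with a median of 528, and its KO males were at 364, 755, 605 and 532, while the lowest of the 10 females had 2031. The female minus male difference was 2.38 ± 0.16 on the log2 scale in controls and 2.77 ± 0.17 in KO, with limma adjusted p of 5.17e-10 and 2.93e-10. Fmo4, the low-level gene next to it on chromosome 1, had 30.2, 16.5, 18.9, 17.2 and 35.0 normalised reads in control females and 0.954 to 4.61 in control males. It differed by 2.75 ± 0.39 in controls and 2.52 ± 0.43 in KO. Fmo2, the third gene of that stretch, and Fmo5 on chromosome 3 were not called by sex. The summed level of the 4 Fmo members was 4021 ± 881 (SD, n = 5) in control and 4821 ± 643 (n = 5) in KO females, against 1737 ± 246 (n = 6) and 1543 ± 369 (n = 4) in the matching males.

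Of the aldehyde oxidases, which oxidise aldehydes and nitrogen-containing rings, 2 of 3 were female-high in both genotypes. The female-high share over all genes tested was 13.5% in controls and 12.1% in KO. Aox2 had 68.7, 25.8, 38.7, 28.1 and 32.9 normalised reads in control females and 4.61 to 16.9 with a median of 7.94 in control males, a log2 difference of 1.88 ± 0.32. In KO the difference was 1.83 ± 0.36. Aox1, the main one by level, had 2359 ± 288 in control females (n = 5) and 1830 ± 230 in control males (n = 6), a log2 difference of 0.37 ± 0.089 with limma adjusted p = 0.00392. Its KO call, at 0.31 ± 0.099, was lost without KO female 1 or 4 or KO male 1, 2 or 4. Aox3 was not called. Among the carboxylesterases, which split esters and amides, limma called only Ces2b by sex. It was male-high with a log2 difference of -1.05 ± 0.25 in controls and levels of 7.20 to 16.6 in females and 20.8 to 38.7 in males. Its KO difference of -0.76 ± 0.27 had adjusted p = 0.0492, and 22 of 32 alternatives lost that call. In controls edgeR and DESeq2 also called Ces1d, at 172 ± 189 (SD, n = 5) in females and 47.0 ± 27.6 (n = 6) in males.

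Sex calls among the glutathione transferases went both ways, also within the alpha class. The alpha-class genes Gsta2 and Gsta3 were female-high, as were Gstk1, Gstp1, Gsto1 and Gstz1, whereas the mu and theta classes held only male-high calls in controls. Gsta2 had 155, 33.0, 115, 73.4 and 26.8 normalised reads in control females and 168, 51.9, 184, 60.6 and 69.9 in KO females. Among males it was at 0 in 5 of 6 controls, with 0.916 in the other, and at 0 in all 4 KO libraries. The log2(value + 1) differences of 5.89 ± 0.43 and 6.55 ± 0.48 depend on the added 1 and are no measure of fold. Of the 50-base stretches of Gsta2, 49.8% occur in other genes, Gsta1 first among them. Gsta3 was female-high by 2.13 ± 0.30 in controls and 3.59 ± 0.33 in KO. Gstk1 had 1872 to 2266 in control males with a median of 1981 and 1791, 1715, 1771 and 1890 in KO males, below every female, and differed by 1.199 ± 0.11 and 1.73 ± 0.12. Gstp1 differed by 0.32 and 0.46, Gstz1, the enzyme of tyrosine breakdown that isomerises maleylacetoacetate, by 0.37 and 0.28, and Gsto1, a thioltransferase, by 0.43 and 0.40. With age as a covariate Gstz1 and Gsto1 lost their control calls, and Gsto1 also without the females labelled 1.5 months. In KO Gstz1 lost its call in 4 of 32 alternatives, with the age covariate and without KO female 4 or KO male 2 or 4, and Gsto1 in 3, without KO female 3 or 4 or KO male 2.

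In the Gstm cluster 5 of 7 genes were male-high in controls and the same number in KO, beside 12.9% and 10.6% of all genes tested. Gstm1 had 7789, 5742, 5841, 7002 and 6173 normalised reads in control females, against 8726 to 13502 with a median of 11287 in control males. In KO females it had 5591, 6229, 8005, 6013 and 6194, and in KO males 13278, 14179, 13474 and 16085. All males exceeded all females, with log2 differences of -0.79 ± 0.11 in controls and -1.16 ± 0.12 in KO and limma adjusted p of 1.19e-05 and 3.61e-07. Gstm2 differed by -0.72 ± 0.13 and -1.02 ± 0.14. Gstm3 differed by -1.22 and -1.44, at means of 7.85 to 24.8 normalised reads, and shares 28.8% of its 50-base stretches with other genes. Gstm6 and Gstm5 were also male-high, with differences of -0.79 and -0.40 in controls. With age as a covariate Gstm3 and Gstm6 lost their control calls, and Gstm6 also without the females labelled 1.5 months. Gstm5 lost its KO call, at -0.30 ± 0.10, in 11 of 32 alternatives, among them leaving out KO female 1, 4 or 5, control male 5 or KO male 2, 3 or 4. Gstm7 was the cluster's only gene called female-high in either genotype, by 0.36 ± 0.10 in KO libraries with adjusted p = 0.0134, while its control estimate was -0.20 ± 0.091. That call was lost without KO male 4. Of the theta class, Gstt1 and Gstt2 were male-high in controls, at -0.69 ± 0.17 and -0.97 ± 0.22, and Gstt3 was not called by sex. In KO they were called at -0.54 ± 0.19 and -0.97 ± 0.24. Gstt1 lost its control call with age as a covariate and its KO call in 11 of 32 alternatives, among them limma-voom, the age covariate and leaving out KO female 1, 2, 3 or 4, control male 3 or KO male 1, 2 or 4. Gsta4, which conjugates the lipid peroxidation product 4-hydroxynonenal, was the male-high gene of the alpha class, at 1391 ± 129 in control males (n = 6) and 937 ± 77.5 in control females (n = 5).

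The 5 sulfotransferases held 2 male-high calls in controls, beside 12.9% of all genes tested. These were Sult1a1, which sulfates phenols, and Sult5a1. The call of Sult5a1, at -0.51 ± 0.18, was lost in 8 of 32 alternatives: the age covariate, the fit to controls alone, and without control female 2, 3 or 4 or control male 1, 3 or 4. Its KO call, at -0.54 ± 0.19, was lost in 19 of 32. Sult1a1 had 273, 359, 283, 369 and 421 normalised reads in control females and 445 to 582 with a median of 508 in control males, a log2 difference of -0.60 ± 0.11. In KO the groups overlapped, with 318, 390, 388, 384 and 370 in females and 359, 466, 366 and 433 in males. The interaction estimate of 0.47 ± 0.17 had an adjusted p of 0.599. Sult2b1 had 2.80, 0.961, 0, 2.25 and 10.1 in KO females and 16.7, 3.71, 17.4 and 15.1 in KO males, with a KO difference of -2.03 ± 0.86 and adjusted p = 0.0970.

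Ugt1a1, the bilirubin-conjugating gene of the Ugt1a locus, was female-high in both genotypes. Control females had 363, 421, 57.6, 77.0 and 448 normalised reads and KO females 1564, 1437, 606, 744 and 303. Control males lay between 0 and 8.24, with 3 of 6 at 0, and KO males were at 0, 2.78, 0 and 0. The log2(value + 1) differences were 6.37 ± 0.69 in controls and 9.15 ± 0.76 in KO, again set in part by the added 1. In females the KO values were higher in the mean, at 931 ± 546 against 273 ± 191 (n = 5 each), with overlap, and the log2 difference of 1.99 ± 0.72 had a limma adjusted p of 0.216. limma-voom called it. Ugt1a6a was male-high in controls, at -1.21 ± 0.44, with adjusted p = 0.0451, and 15 of 32 alternatives lost that call. In KO its estimate was 0.37, and it was not called. The summed level of the 6 members was 486 ± 179 (SD, n = 5) in control and 1140 ± 649 (n = 5) in KO females, against 489 ± 250 (n = 6) and 142 ± 86.0 (n = 4) in the matching males.

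**Figure D4:**
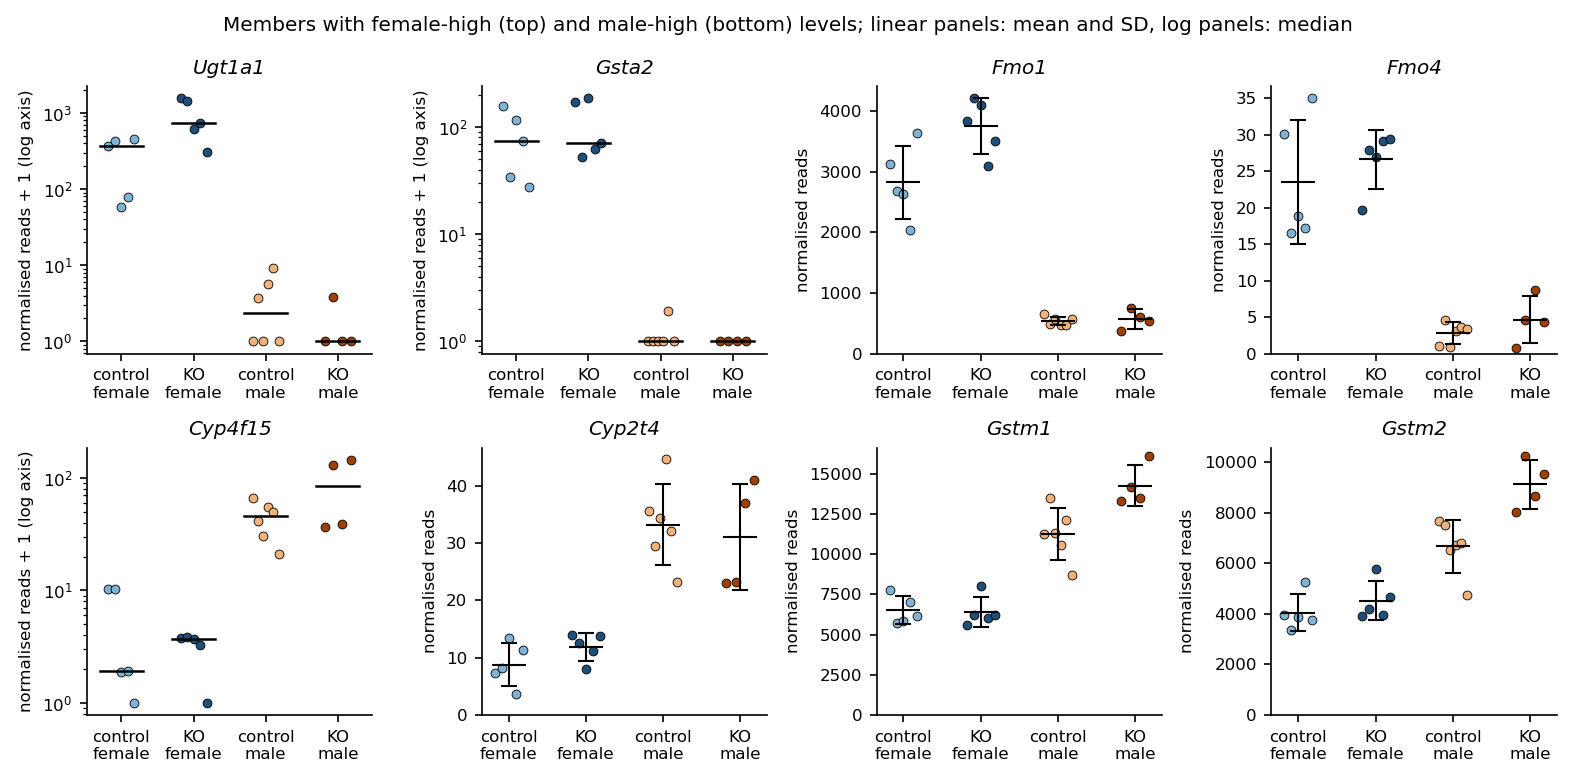
Normalised reads of 4 female-high members (top row) and 4 male-high members (bottom row) in each library, with mean and SD on linear axes and with the median on the logarithmic axes of value + 1 used for Ugt1a1, Gsta2 and Cyp4f15. Fmo1 shows 10 females between 2031 and 4217 above 10 males between 364 and 755, and Gstm1 shows the opposite order without overlap.

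The X-zone persists in young female mice and recedes in males, and its markers moved with sex. The sum of its 5 markers was 39545 to 141606 normalised reads in control and 35290 to 106258 in KO females, against 3224 to 7253 and 2221 to 6166 in the matching males. Of these markers 4 of 5 were called female-high in each genotype, beside 13.5% of all genes tested in controls and 12.1% in KO. Steroid-producing cortex markers were female-high for 5 of 10 genes in controls, with Cyp11a1 male-high. In KO males 2 of these 10 fell, with log2 differences of -0.71 ± 0.16 for Cyp11a1 and -0.69 ± 0.15 for Star. The part of these cell markers in the differences of the members was not tested. The X-zone sums of control and KO males overlapped, and 0 of its 5 markers were called between male genotypes by limma, edgeR or DESeq2, with 1 at an unadjusted p under 0.05.

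Some members are also known from fat cells, and adipocyte markers varied between libraries. The sum of 10 adipocyte markers ran from 3268 to 21400 normalised reads over the 20 libraries, and none of its markers was called by limma in any contrast. Control female 4, labelled 1.5 months, had the highest sum, 21400, together with the highest Cyp2e1, at 960 normalised reads, and the highest Ces1d, at 450. KO female 4 came next with 12204, and had 689 of Cyp2e1 and 233 of Ces1d. The third library, control female 5, had 8786, with 529 and 288. The other 17 libraries had sums up to 8096, with Cyp2e1 between 128 and 519 and Ces1d between 12.9 and 106. Cyp2e1 metabolises ethanol and small solvents, and Ces1d is a lipid-hydrolysing carboxylesterase. Neither was called in any limma contrast, while edgeR and DESeq2 called Ces1d by sex in controls. Fmo2 did not follow the sum, with 574 normalised reads in control female 4 and its highest value, 1172, in control female 2, where the sum was 3838. The part of adipocyte RNA in these values was not tested.

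**Figure D5:**
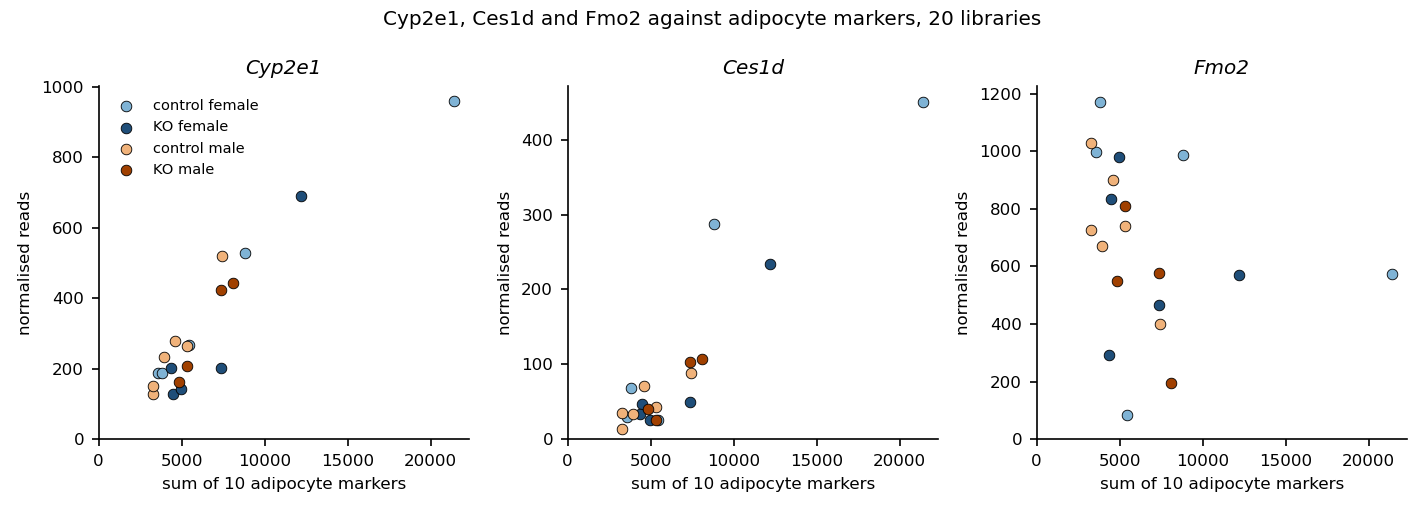
Normalised reads of Cyp2e1, Ces1d and Fmo2 in each of the 20 libraries against the sum of 10 adipocyte markers, coloured by group. The library with the sum of 21400 has the highest Cyp2e1 and Ces1d, at 960 and 450, and Fmo2 shows no such order.

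Among the listed sensors and regulators, the genotype calls fell on clock-controlled genes, which the list holds by choice. Their part in the levels of the members was not tested. Of 21 sensors and regulators tested, 1 rose and 3 fell in KO females, beside 1.12% and 0.635% of all genes tested. In KO males 3 fell, beside 0.567% of all genes tested. The genes that fell were the repressors Nr1d1 and Nr1d2 and the activator Dbp, with log2 differences of -3.40, -2.72 and -2.69 in females and -2.59, -2.12 and -2.32 in males. Nfil3, the repressor that competes with Dbp for D-box sites, rose in females by 1.26 ± 0.23, from 336 to 862 normalised reads in controls to 1130 to 1331 in KO. The receptors that sense foreign compounds in the liver had few reads here. Nr1i2, the pregnane X receptor, had at most 1.09 normalised reads in any library, Hnf4a at most 2.16, and Nr1i3, the CAR receptor, between 2.24 and 27.7. Ahr, the aryl hydrocarbon receptor, ran from 78.4 to 178, and Nfe2l2, the regulator of antioxidant response elements, from 2429 to 4165. Ahr was female-high in controls by 0.49 ± 0.16 and Nfe2l2 by 0.25 ± 0.070, each with limma adjusted p under the threshold, at 0.0323 and 0.0118. The liver factor Cebpa was female-high by 1.96 ± 0.16 in controls and 2.49 ± 0.18 in KO.

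Por, the reductase that feeds electrons to microsomal P450s, fell in KO females. It had 2917 to 3814 normalised reads in control females with a median of 3543 and 2076 to 3080 in KO females with a median of 2246, a log2 difference of -0.54 ± 0.11 with limma adjusted p = 0.0133. The groups overlapped. In males Por had 2362 to 3570 in controls and 1873 to 2374 in KO and was not called. Of the 6 electron donors, 4 were female-high in controls, led by Cyb5b at 1.15 ± 0.070, and 5 in KO. Over all genes tested, 13.5% were female-high in controls and 12.1% in KO.

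Other phase I enzymes gave 0 genotype calls among 22 in either sex with limma, beside 1.75% of all genes tested in females and 1.33% in males. An unadjusted p under 0.05 was seen for 7 in females and 2 in males. edgeR also called 0 in each sex, and DESeq2 called 1 in each. By sex, 13 were female-high and 4 male-high in controls, beside 13.5% and 12.9% of all genes tested. In KO 9 were female-high and 3 male-high, beside 12.1% and 10.6%. Adh1, an alcohol and retinol dehydrogenase, stood at 119931 to 143155 normalised reads in control females and 4940 to 36382 in control males. It was female-high by 3.59 ± 0.34 in controls and 4.87 ± 0.38 in KO. Adh7 was female-high by 4.17 and 4.14, and Aldh1a7, an aldehyde dehydrogenase, was male-high, at -4.57 and -4.02.

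Among 18 enzymes of cofactor supply and other conjugation, 9 were female-high and 1 male-high in each genotype. Over all genes tested, 13.5% were female-high and 12.9% male-high in controls, and 12.1% and 10.6% in KO. Mgst1, the microsomal glutathione transferase, had 29580 to 39040 normalised reads in control females and 6263 to 10940 in control males, a log2 difference of 2.14 ± 0.13. Papss2, which makes the sulfate donor, was male-high, at -0.79 ± 0.16. By genotype 1 of the 18 was called, Mgst2, which fell in KO males, with a log2 difference of -1.15 ± 0.29 and limma adjusted p = 0.0487. Of 19 transporters, Slc22a5, the carnitine carrier, fell in KO males, at -0.39 ± 0.078. Over all genes tested, 0.567% fell in KO males. By sex, 2 transporters were female-high and 5 male-high in controls, beside 13.5% and 12.9% of all genes tested.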

How the data were processed

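RNA sequencing of 20 whole adrenals was deposited as 1 table. Per the submitters' processing notes, featureCounts, Salmon, DESeq2, MultiQC and FastQC were used with build GRCm38 (mm10). Neither an aligner nor an annotation release or strand setting is named there. The deposited signal is a read count that the authors divided by 1 size factor per library: 100% of positive values came out as whole reads within 0.001 of a read. It is called normalised read count. Identifiers were matched to GENCODE M21, which held 47224 of 47729.

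Genes reaching a value of 1 in 4 or more libraries, 26612 in all, were tested by limma-trend (limma 3.58.1, R 4.3.3) as log2(value + 1), using 4 group means and no block. All 65 members passed that filter. Adjusted p (Benjamini-Hochberg over all genes tested) are limma's unless another tool is named. Because 1 is added before taking log2, changes of low genes come out too small. edgeR 4.0.16, DESeq2 1.42.0 and limma-voom on recovered reads, TMM scaling, pseudocounts of 0.1 and 10, other filters, an age covariate, a replicate block, 2-group fits and leaving out libraries were alternatives. Shared sequence is the share of a gene's distinct 50-base stretches that occur in transcripts of other GENCODE M21 genes. Levels per kilobase use merged exon length.

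The members and 14 gene lists with 171 entries were chosen with earlier results of these data known. Members named were those called by genotype, the 5 with the smallest p in each genotype contrast and the interaction, the 20 called with the largest differences in each sex contrast, and the 3 of each family with the highest mean. From each list, names were taken from the 3 called genes with the largest differences; 1 of these is not reported here. Names beyond that were chosen after their values were seen.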

Additional observations from a re-analysis of the deposited data

Results flagged for a closer look

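In 167 groups of 4 to 6 libraries, over 42 named members, 17 groups held 1 library that stood apart from the rest by Dixon's criterion, in 15 genes. With normally distributed values the criterion flags about 1 in 20 groups by chance. That rate was not tested for these read values, some of which are 0. In KO female 4, which had the second highest adipocyte marker sum, Cyp2e1 stood at 689.1 normalised reads (next highest 202.4), Ces1d at 233.4 (next 49.48) and Cyp2j6 at 613.9 (next 493). Their relation to fat cells was not tested. In KO male 2, Ugt1a1 stood at 2.782 with the others at 0, Ugt1a6b at 77.89 (next highest 5.431), Cyp4v3 low at 993.1 (next lowest 1072) and Cyp4x1 low at 25.96 (next lowest 33.46). In KO female 1, Cyp4x1 was high at 26.16 (next 19.79), Fmo4 low at 19.62 (next lowest 26.99) and Sult1a1 low at 317.7 (next lowest 369.8). The other libraries held 1 each. Control female 2 had Gstk1 at 6759 (next 4267), and without it Gstk1 was called between female genotypes. KO female 3 had Gstm1 at 8005 (next 6229), KO male 1 had Cyp4f14 at 711 (next 563.4), and KO female 5 had Cyp4f15 at 0 (next lowest 2.245). Control male 3 had Cyp4x1 at 36.27 (next 26.51). In control male 4 Cyp3a16 stood at 3.078 (next 1.104), and in control male 5 Gsta2 stood at 0.916 with the others at 0.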

How the results depend on the processing

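For members named because of a contrast, no direction reversed in the alternatives of that contrast. Other contrasts, and members named only for their level in a family, were not checked in this way. The count of members called by genotype in females, 1, became 4 with DESeq2 (2 higher, 2 lower) and 2 with limma-voom, and ran from 1 to 2 with libraries left out in turn. In males the count of 5 became 8 with DESeq2, 0 with the 2 male groups fitted alone and 3 with the replicate block. It ran from 1 to 6 with libraries left out, falling to 1 without control male 3 or 4 or KO male 2 or 3, to 2 without control male 2 or KO male 1, and to 3 without KO male 4. The smaller fit has fewer samples; the causes of the other shifts were not tested. The sex count in controls, 35, became 22 with age as a covariate and ran from 30 to 36 with libraries left out. The sex count in KO, 33, ran from 23 (without KO male 4) to 34. The interaction count stayed at 0. The labels do not state whether equal replicate numbers pair the samples. Deviations of same-numbered libraries correlated between -0.115 and 0.222, and only in part best with their own number. These weak correlations do not settle whether samples were paired. With the replicate block the counts were 1 in females, 3 in males, 36 by sex in controls and 28 in KO. Among genes with a mean of at least 5, TMM scaling shifted the group differences by a median of at most 0.021 on the log2 scale. Members with few reads, such as Ugt3a2, are limited by depth.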
